A study of Homo sapiens with 12 samples.

Results

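The genes described here are 43 genes of S phase and DNA replication, taken by a fixed list of symbols from the 18404 genes measured on the arrays. All 43 were found. They cover origin licensing (10 genes), helicase activation together with MCM8 (7), polymerases and primase (5), the sliding clamp, its loader and strand completion (8), deoxynucleotide synthesis (4), chromatin and histone supply (6) and control of the G1 to S transition (3). Expression was measured on 12 arrays from the established human cell lines JHU-029 and FaDU, each derived from a head and neck squamous cell carcinoma. By lentivirus, each line was given either a control vector (the groups called shControl) or shRNA to TP63 (the groups called shTP63), and RNA was taken at 72 hours, with 3 arrays in each of the 4 groups. TP63 encodes p63, a transcription factor of squamous epithelium, and the comparison asks how its knockdown moves the replication genes in each line. TP63 mRNA is not analysed here, so no value of it checks the labels. Whether the 3 arrays of a group stand for separate cultures is not in the labels, and the p-values therefore cover the spread among these arrays alone, which may be technical. The labels give no number of shRNA sequences against TP63 and no fraction of cells that took up the virus.

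DNA replication is prepared in G1, when the origin recognition complex, CDC6 and CDT1 load the MCM2 to MCM7 ring onto DNA. In S phase the ring becomes an active helicase by joining CDC45 and the GINS complex, and the clamp loader then places PCNA for the polymerases. Many of these genes are transcribed by E2F factors once cyclin E and its kinase have released them from the retinoblastoma protein, and their mRNAs are widely used as a sign of cycling cells. In bulk RNA of this kind, fewer cells in S phase and less RNA per cell cannot be told apart.

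Many promoters of these genes, though not all, carry a sequence feature that the list did not use. Examples are printed because it occurs both among the genes that fell and among those that did not. RefSeq promoters of GRCh38.p14, from 250 bases before to 50 after a transcription start, were matched for 38 of the 43 genes (48 promoters in all). Those of RPA2, GINS4, CCNE2, MCM5 and MCM4 were not used. The E2F-type letters searched on both strands were TTTCCCGC, TTTGGCGC, TTTCGCGC and TTTGCCGC. Matches can overlap, as TTTGGCGC and the reverse complement of TTTCGCGC do in the MCM6 promoter. At least 1 of the 4 was found for 21 of the 38 genes (55.3%), against 784 of the 14230 measured genes with a promoter (5.51%). Of the 18 genes with a promoter that fell in FaDU after TP63 knockdown, 10 held it (55.6%), and so did 11 of the 19 that did not pass the test there (57.9%). The letters therefore did not separate these groups. CCAAT, searched on both strands in the same windows, was found for 23 of the 38 genes (60.5%) and for 42.2% of all measured genes with a promoter. TTTGAA, searched in the same way, was found for 1 of the 38 genes (2.63%) and for 15.7% of all measured genes with a promoter. A match is a description of the letters and not a measured binding site. Below are 40-base stretches upstream of the start, 5′ to 3′ on the gene's strand, with every match to the E2F-type letters in capitals. The stretches of E2F1 and MCM6 hold 2 matches each, which overlap in MCM6. The first 4 genes fell in FaDU (CDCA7 at chr2:173354791-173354830, plus strand; RFC3 at chr13:33818078-33818117, plus; MCM7 at chr7:100101561-100101600, minus; POLE at chr12:132687343-132687382, minus). The next 4 did not pass the test in either line (PCNA at chr20:5126658-5126697, minus; LIG1 at chr19:48170435-48170474, minus; E2F1 at chr20:33686386-33686425, minus; MCM6 at chr2:135876510-135876549, minus). The last rose in JHU-029 (CASP8AP2 at chr6:89829715-89829754, plus).
CDCA7: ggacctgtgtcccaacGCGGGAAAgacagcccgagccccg
RFC3: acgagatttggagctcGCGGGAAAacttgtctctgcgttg
MCM7: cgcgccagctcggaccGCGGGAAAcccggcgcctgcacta
POLE: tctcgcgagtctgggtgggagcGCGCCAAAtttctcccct
PCNA: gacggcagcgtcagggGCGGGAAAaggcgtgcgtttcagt
LIG1: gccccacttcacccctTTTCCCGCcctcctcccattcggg
E2F1: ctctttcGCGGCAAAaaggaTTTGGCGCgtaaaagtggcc
MCM6: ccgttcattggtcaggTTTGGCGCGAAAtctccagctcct
CASP8AP2: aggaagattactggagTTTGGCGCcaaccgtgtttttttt

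Levels are log2 of the deposited intensity throughout, and a change is the difference of group means on that scale. Array medians lay between 6.46 and 6.56 on this scale, and arrays of a group correlated at 0.993 to 0.997. All 43 genes lay above the array median in all 4 groups, with the lowest group mean at 7.15 for GINS4 in FaDU shTP63, and all were among the 9202 genes at or above the median gene, here called the brighter genes. The median SD of these genes between arrays of a group ran from 0.0415 in JHU-029 shControl to 0.0538 in FaDU shControl, and the highest was 0.247 for GINS2 in FaDU shControl. Among the FaDU arrays, control array 2 and knockdown array 1 lay low for these genes, with only 10 and 11 of the 43 above their group means.

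After TP63 knockdown in FaDU, 20 of the 43 replication genes fell and 2 rose (adjusted p under 0.05 in limma, Benjamini-Hochberg over all 18404 genes). Of all genes, 14.2% were lower and 12.4% higher by the same test, and of the 9202 brighter genes, a background chosen after the data were seen, 24.3% were lower and 17.4% higher. The share of these genes that fell, 46.5%, was thus above both backgrounds, while the share changed either way, 51.2%, stood nearer to the 41.7% of the brighter genes. Their median change was -0.17, against 0.02 over all genes, and 32 of 43 were negative (74.4%, against 52.8% of the brighter genes). Across the other pathway lists described below, the share negative ran from 47.1% for chromatin assembly to 80.8% for nucleotide supply. The groups of arrays did not overlap for 24 genes lower after knockdown and for 4 higher, where 18.0% and 18.1% of all genes did so. The genes with the largest falls were CDCA7, GINS3, GINS4 and CHAF1B, and the largest rise was that of CCNE2. Leaving out the 2 FaDU control arrays whose titles hold an extra word, which leaves 1 control array assumed to vary like the other groups, gave 19 genes past the threshold. It lost the calls of MCM4, MCM10, POLD1, UHRF1 and RRM2 (adjusted p from 0.0614 to 0.158) and added GINS2 and RFC5 (0.0109 and 0.0162).

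**Figure D1:**
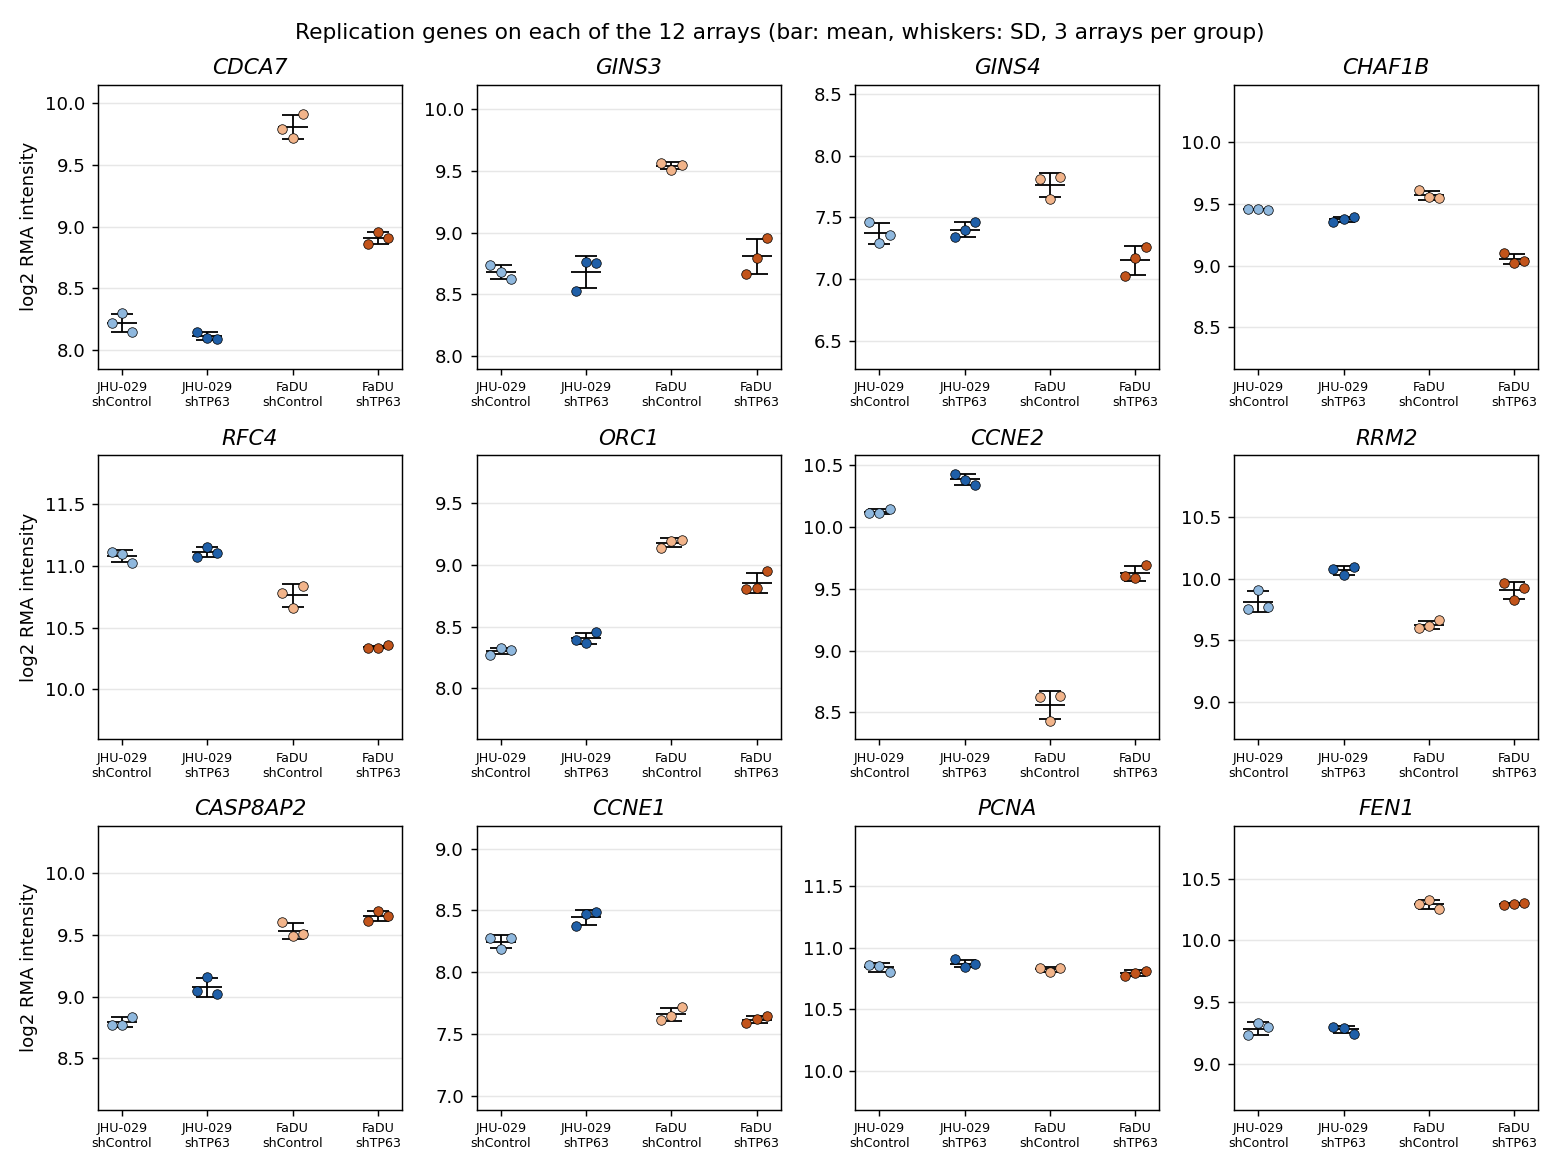
Log2 RMA intensity (vertical axis) of 12 replication genes on each of the 12 arrays, by group, with bars for means and whiskers for the SD of 3 arrays; every panel spans the same height but starts at its own level. CDCA7 falls from a mean of 9.81 to 8.91 in FaDU while its JHU-029 arrays lie between 8.09 and 8.30, and CCNE2 rises in both lines.

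Among the licensing genes, 5 of 10 fell in FaDU. ORC1, the largest subunit of the origin recognition complex, read 9.14, 9.20 and 9.20 on the FaDU control arrays and 8.80, 8.81 and 8.95 on the knockdown arrays. It fell by 0.32 (SE 0.06, adjusted p = 0.000763), and no knockdown array reached the lowest control. ORC6, the smallest subunit of that complex, went from 9.89, 9.76 and 9.96 to 9.59, 9.54 and 9.56 and fell by 0.30 (adjusted p = 0.00175). Of the helicase ring itself, MCM7 had the largest fall, from 11.09, 11.11 and 11.12 to 10.75, 10.86 and 10.84 (0.29, adjusted p = 0.000866). MCM3 fell by 0.23 (adjusted p = 0.00429), from 10.92, 10.90 and 10.95 to 10.65, 10.70 and 10.73. MCM4 fell by 0.21 (adjusted p = 0.0122), from 11.07, 11.14 and 11.04 to 10.83, 10.91 and 10.90, which did not pass when each line was fitted alone (adjusted p = 0.0618). The other 3 ring subunits did not pass, so the ring's mRNAs did not give a single answer: MCM2 differed by -0.06 (95% interval -0.17 to 0.05), MCM5 by -0.02 and MCM6 by -0.15 (adjusted p = 0.0979). MCM6 read 10.03, 9.87 and 10.03 in control arrays, and without control array 2, the lowest of them, its difference was -0.21 (adjusted p = 0.0338). The loaders CDC6 and CDT1 differed by -0.14 (adjusted p = 0.182) and 0.04 (adjusted p = 0.711).

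Helicase activation was the role with the largest share of falls in FaDU, 6 of 7 genes. GINS3, 1 of the 4 subunits of the GINS complex that joins the MCM ring, read 9.56, 9.51 and 9.55 in control arrays and 8.67, 8.80 and 8.96 after knockdown. Its level fell by 0.74 on the log2 scale (1.66-fold lower, SE 0.08, adjusted p = 2.99e-05). GINS4 went from 7.81, 7.65 and 7.82 to 7.02, 7.17 and 7.26 and fell by 0.61 (1.53-fold lower, SE 0.08, adjusted p = 6.96e-05). For both subunits every knockdown array lay below every control array, by more than the spread within either group. GINS1 read 9.03, 9.03 and 9.21 in control arrays and 8.67, 8.67 and 8.83 after knockdown, a fall by 0.36 (adjusted p = 0.00137). GINS2, the remaining subunit, had arrays that overlapped, at 9.94, 9.58 and 10.06 in control and 9.54, 9.56 and 9.77 after knockdown. Its difference of -0.24 did not pass (SE 0.10, adjusted p = 0.12), but without control array 2 it was -0.38 (adjusted p = 0.00425), so that 1 array decided the call. CDC45, which completes the active helicase with GINS, fell by 0.21 (9.32, 9.26 and 9.30 to 9.11, 9.05 and 9.09, adjusted p = 0.00607), and lost the call with each line fitted alone (adjusted p = 0.0503). MCM10, needed to start unwinding, went from 9.93, 9.77 and 9.75 to 9.57, 9.57 and 9.59 and fell by 0.24 (adjusted p = 0.00805; adjusted p = 0.0503 with each line alone). MCM8, which forms a separate helicase with MCM9 in recombination repair, fell by 0.32 (10.63, 10.55 and 10.59 to 10.33, 10.18 and 10.29, adjusted p = 0.000866).

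Of the polymerase and primase genes, 3 of 5 fell in FaDU, and they were those of the leading and lagging strand enzymes rather than of the priming complex. POLE, the catalytic subunit of the leading-strand polymerase epsilon, read 9.44, 9.44 and 9.37 in control arrays and 9.16, 9.09 and 9.16 after knockdown, a fall by 0.28 (adjusted p = 0.00115). POLE2, its second subunit, went from 8.50, 8.45 and 8.51 to 7.99, 8.23 and 8.21 and fell by 0.34 (adjusted p = 0.00171). POLD1, the catalytic subunit of polymerase delta, fell by 0.30 (8.57, 8.65 and 8.62 to 8.38, 8.27 and 8.28, adjusted p = 0.00516). POLA1 and PRIM1, catalytic subunits of the polymerase alpha and primase complex that lays down primers, differed by 0.03 (95% interval -0.12 to 0.18) and -0.05 (-0.17 to 0.08), and neither passed.

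Within the clamp group the loader and the clamp parted. RFC2, RFC3 and RFC4 are small subunits of replication factor C, the ring that opens and loads PCNA, and all 3 fell in FaDU. RFC4 read 10.79, 10.66 and 10.84 in control arrays and 10.34, 10.34 and 10.36 after knockdown, a fall by 0.42 (1.34-fold lower, SE 0.06, adjusted p = 0.000155). RFC2 went from 10.11, 10.11 and 10.22 to 9.78, 9.72 and 9.79, a fall by 0.38 (adjusted p = 0.000163), and RFC3 from 9.63, 9.52 and 9.72 to 9.28, 9.30 and 9.29, a fall by 0.33 (adjusted p = 0.00069). These falls exceeded the spread between arrays in each case. RFC5, the fourth small subunit, had knockdown arrays of 10.40, 10.41 and 10.43, all under the controls at 10.57, 10.48 and 10.70, with a difference of -0.17 (adjusted p = 0.0581). Without control array 2 the difference was -0.22 (adjusted p = 0.0186). PCNA itself read 10.83, 10.80 and 10.84 in control and 10.77, 10.80 and 10.81 after knockdown, a difference of -0.03 with a 95% interval from -0.13 to 0.07. FEN1, the flap nuclease of Okazaki fragments, differed by 0.00 (95% interval -0.10 to 0.11), and LIG1, the ligase that seals them, by 0.07 (-0.09 to 0.23). RPA2, a subunit of the single-strand binding protein, differed by 0.04, with the widest interval of the group, from -0.19 to 0.27.

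Of the 4 genes of deoxynucleotide synthesis, 1 passed the test in FaDU. RRM2, the S phase subunit of ribonucleotide reductase, read 9.60, 9.62 and 9.66 in control arrays and 9.96, 9.83 and 9.92 after knockdown. It rose by 0.28 (1.21-fold, SE 0.06, adjusted p = 0.00346), opposite to the genes above. RRM1, the large subunit of the same enzyme, differed by 0.01 (95% interval -0.11 to 0.13), thymidylate synthase (TYMS) by 0.07 (-0.05 to 0.18) and thymidine kinase 1 (TK1) by -0.07 (-0.17 to 0.04), and none of these passed.

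Chromatin and histone supply held the largest fall of the whole list. CDCA7, a partner of the chromatin remodeller HELLS and a MYC and E2F target, read 9.79, 9.72 and 9.91 on the FaDU control arrays and 8.86, 8.95 and 8.91 after knockdown. It fell by 0.90 (1.86-fold lower, SE 0.06, adjusted p = 7.29e-07), with every knockdown array below every control array. CHAF1B, the p60 subunit of the chromatin assembly factor that puts histones on new DNA, went from 9.61, 9.55 and 9.55 to 9.10, 9.02 and 9.04 and fell by 0.52 (1.43-fold lower, SE 0.05, adjusted p = 7e-06). CHAF1A, the large subunit of the same factor, differed by -0.10 (95% interval -0.21 to 0.01, adjusted p = 0.183). UHRF1, which brings maintenance methylation to new DNA, fell by 0.22 on its brighter probe set (10.23, 10.12 and 10.09 to 9.93, 9.87 and 9.99, adjusted p = 0.0116). A second, dimmer UHRF1 probe set differed by 0.09 in FaDU (adjusted p = 0.543). It lay below the array medians, so it could not check the fall on the brighter one. SLBP, the histone mRNA stem-loop binding protein, and CASP8AP2, a factor of histone mRNA production, differed by -0.06 (adjusted p = 0.472) and 0.12 (adjusted p = 0.159).

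Among the 3 genes of G1 to S control, cyclin E2 stood opposite to the replication machinery. CCNE2 read 8.62, 8.43 and 8.63 in FaDU control arrays and 9.60, 9.59 and 9.70 after knockdown. It rose by 1.07 (2.10-fold, SE 0.06, adjusted p = 2.08e-07), the largest change of the 43 genes in either direction. CCNE1, which encodes the other E-type cyclin, read 7.61, 7.65 and 7.71 in control and 7.58, 7.62 and 7.65 after knockdown, a difference of -0.04 (95% interval -0.16 to 0.08). E2F1, the transcription factor downstream of both, differed by 0.10 (95% interval -0.05 to 0.25) and did not pass.

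**Figure D2:**
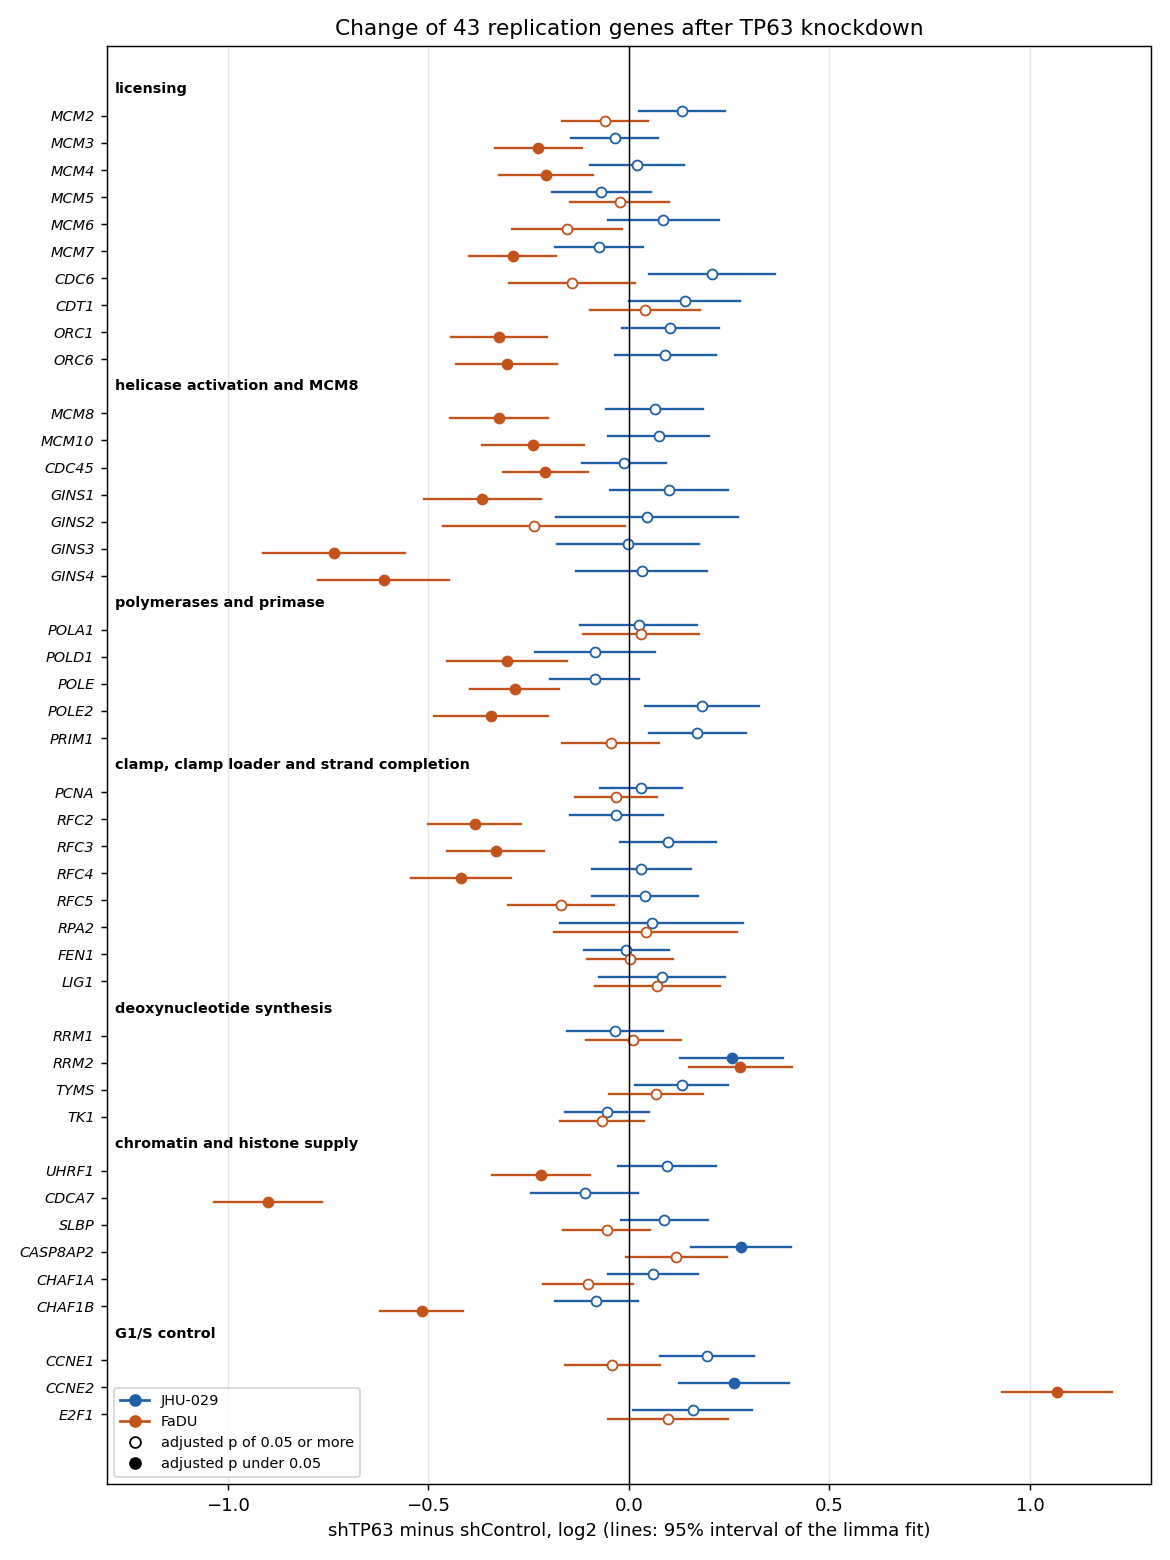
Change after TP63 knockdown (shTP63 minus shControl, log2; horizontal axis) of all 43 genes by role, in JHU-029 (blue) and FaDU (orange), with 95% intervals of the limma fit; filled points have an adjusted p under 0.05. In FaDU 20 filled points lie left of 0 and 2 to the right, whereas JHU-029 has 3 filled points, all to the right.

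In JHU-029, 3 of the 43 genes rose and 0 fell in limma. Of all genes 1.80% were higher and 1.35% lower (2.78% and 2.29% of the brighter genes). At an unadjusted p under 0.05, 11 were higher and 0 lower, where 8.34% of all genes were higher and 6.48% lower. CASP8AP2 read 8.77, 8.77 and 8.84 in control arrays and 9.04, 9.16 and 9.02 after knockdown and rose by 0.28 (1.21-fold, SE 0.06, adjusted p = 0.0206). CCNE2 went from 10.12, 10.11 and 10.15 to 10.43, 10.38 and 10.34 and rose by 0.26 (1.20-fold, adjusted p = 0.0433), and RRM2 from 9.76, 9.91 and 9.77 to 10.08, 10.03 and 10.10, also 0.26 (1.19-fold, adjusted p = 0.0359). In each case the knockdown arrays lay above all controls. These calls did not hold when single arrays were left out, though the changes stayed positive. In the single-array fits that lost the call, the change was 0.24 to 0.30 for CASP8AP2, 0.24 to 0.28 for CCNE2 and 0.23 to 0.28 for RRM2. Without any 1 JHU-029 array, 229 to 485 of all genes passed in JHU-029, against 580 with all arrays. CASP8AP2 was lost without any 1 of the 3 control arrays or knockdown array 2 (adjusted p from 0.0582 to 0.105), and CCNE2 without any 1 of the 6 JHU-029 arrays (0.0982 to 0.156) or without FaDU knockdown array 1 or 2 (0.0509 and 0.0523). RRM2 was lost without control array 1 or 3 or any 1 knockdown array (0.0805 to 0.154).

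Most other members were positive in JHU-029 without passing. The arrays of the groups did not overlap for 18 genes higher after knockdown and 3 lower (MCM7, POLE and CHAF1B), where 13.3% and 11.7% of all genes did so. The median change was 0.06, against 0.00 over all genes and 0.01 over the brighter genes, and 30 of 43 were positive (69.8%, against 50.1% of all genes and 54.5% of the brighter genes). Across the other pathway lists described below, the share positive ran from 42.1% for the histone genes to 88.9% for replication stress and repair. The largest values that did not pass were CDC6 at 0.21 (10.33, 10.32 and 10.23 in control, 10.43, 10.43 and 10.66 after knockdown, adjusted p = 0.172), CCNE1 at 0.20 (8.28, 8.19 and 8.27 against 8.38, 8.47 and 8.48, adjusted p = 0.0826) and POLE2 at 0.18 (adjusted p = 0.194). PRIM1 at 0.17 (adjusted p = 0.141) and E2F1 at 0.16 (adjusted p = 0.291) followed. CDCA7, which had the lowest value, differed by -0.11 (8.22, 8.30 and 8.15 against 8.15, 8.10 and 8.09, adjusted p = 0.471).

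The change itself differed between the lines for 16 of the 43 genes. For 15 of them the FaDU effect lay below the JHU-029 effect and for 1, CCNE2, above it, where 8.25% and 4.97% of all genes did so in limma's test of the difference (14.5% and 6.85% of the brighter genes). The median difference between the effects was -0.22, against 0.01 over all genes and -0.035 over the brighter genes. Of the 43, 37 were negative (86.0%, against 47.8% of all genes and 56.1% of the brighter genes). Across the other pathway lists described below, the share negative ran from 57.9% for the histone genes to 92.2% for G2 and mitosis. By role, the differences passed for 5 of 7 genes of helicase activation (MCM8, MCM10, GINS1, GINS3 and GINS4), for ORC1, ORC6 and CDC6 in licensing, for RFC2, RFC3 and RFC4 in the loader and for POLE2. They also passed for CDCA7, CHAF1B and UHRF1. Those of CDCA7 (-0.79, SE 0.09, adjusted p = 0.000136) and CCNE2 (0.81, SE 0.09, adjusted p = 0.000135) were the largest in size. GINS3 shows the pattern most plainly, with JHU-029 arrays of 8.74, 8.68 and 8.62 in control and 8.53, 8.76 and 8.76 after knockdown, a difference of 0.00 where FaDU fell by 0.74. CDC6 passed for the difference between lines (-0.35, adjusted p = 0.0411) though it passed in neither line alone. The difference was not past the threshold for any of MCM2 to MCM7. It was past it for MCM2, MCM3, MCM4, MCM6 and MCM7 both with dim genes left out and with an intensity trend in the variance prior (adjusted p from 0.00643 to 0.0399), and for MCM6 also without FaDU control array 2 (0.0439). Without single arrays MCM10 was lost for JHU-029 control 2 or 3 or knockdown 1 or 2 (adjusted p from 0.0501 to 0.0704), and UHRF1 for JHU-029 control 2 or 3, JHU-029 knockdown 3 or FaDU knockdown 2 (0.0503 to 0.0585). CDC6 was lost for all arrays but JHU-029 knockdown 1 and 2, FaDU control 2 and FaDU knockdown 3 (0.0642 to 0.106). It was also lost with quantile normalisation (0.0501), median centring (0.0574) and a fixed or random replicate block (0.114 and 0.0563).

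**Figure D3:**
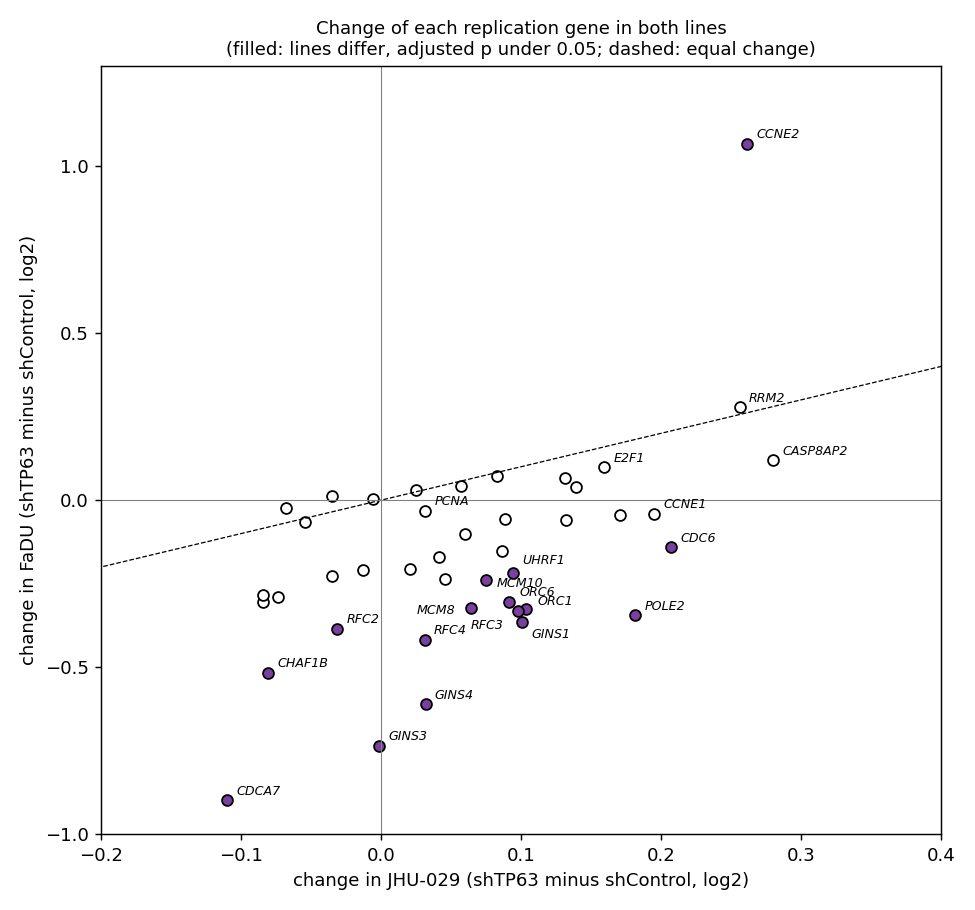
Each of the 43 genes by its change in JHU-029 (horizontal axis) and in FaDU (vertical axis, over a wider range), both shTP63 minus shControl on the log2 scale; filled points are the 16 genes whose change differed between the lines and the dashed line marks equal change. Of the 43 points 21 lie right of 0 and below 0, RRM2 lies near the dashed line, and CCNE2 lies far above it.

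Only RRM2 and CCNE2 changed the same way in both lines by the 0.05 threshold, both upward. Of all genes 0.973% were higher in both lines, and of the brighter genes 1.59%. The effect on RRM2 was nearly the same in size (0.26 and 0.28, difference 0.02, 95% interval of each effect from 0.13 to 0.39 and 0.15 to 0.41), whereas CCNE2 rose further in FaDU. Because both calls need JHU-029, they carry the losses without single arrays given above. Over the 43 genes, 9 were positive and 11 negative in both lines, 21 were positive in JHU-029 and negative in FaDU, and 2 the reverse. The changes in the lines correlated across the 43 genes at Pearson 0.56 and Spearman 0.42, against 0.30 and 0.24 over all genes, dim ones included. The values were 0.49 and 0.38 without CCNE2, and 0.42 and 0.33 without CCNE2 and CDCA7. This is a description across genes, which are not independent replicates and were read on the same 12 arrays.

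The lines also differed under the control shRNA, for more of these genes than knockdown moved in either line. In control arrays 27 of the 43 genes were higher in FaDU than in JHU-029 and 11 lower, where 33.4% of all genes were higher and 30.4% lower (35.5% and 45.7% of the brighter genes). All 10 licensing genes were higher in FaDU, with ORC6 at 9.89, 9.76 and 9.96 against 8.27, 8.27 and 8.24, a difference of 1.61 (3.05-fold, adjusted p = 8.88e-11). CDT1 (1.01), MCM5 (0.92) and ORC1 (0.88) followed, and MCM7 had the smallest difference (0.16, adjusted p = 0.0134), which did not pass after centring arrays on their medians (adjusted p = 0.141). The GINS genes split, with GINS3 and GINS4 higher in FaDU by 0.86 and 0.39, and with GINS1 and GINS2 lower. GINS1 read 9.03, 9.03 and 9.21 in FaDU control against 10.74, 10.84 and 10.77 in JHU-029 control, a difference of -1.69 (3.23-fold lower, adjusted p = 2.05e-10), and GINS2 differed by -1.54 (2.91-fold lower, adjusted p = 2.97e-08). The loader split as well, with RFC2, RFC3 and RFC4 lower in FaDU (-0.64, -0.87 and -0.32) and RFC5 higher (0.74). All 3 genes of G1 to S control were lower in FaDU, and CCNE2 most (-1.56, 2.96-fold lower, adjusted p = 2.21e-10), so that its rise after knockdown to 9.60, 9.59 and 9.70 still left FaDU below the JHU-029 controls at 10.11 to 10.15. CDCA7 was 3.00-fold higher in FaDU control (1.59), and after its fall to 8.86, 8.95 and 8.91 remained above all JHU-029 arrays. PCNA, POLE2, PRIM1, SLBP and CHAF1B did not pass, and PCNA differed by -0.02. POLA1 passed narrowly (0.17, adjusted p = 0.0459) and was lost without any single array except FaDU control 2 and JHU-029 knockdown 1 (adjusted p from 0.0508 to 0.188). RRM2 (-0.18, adjusted p = 0.0151) was lost without JHU-029 control array 2 (adjusted p = 0.0805). DNA copy number of these genes was not analysed here.

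**Figure D4:**
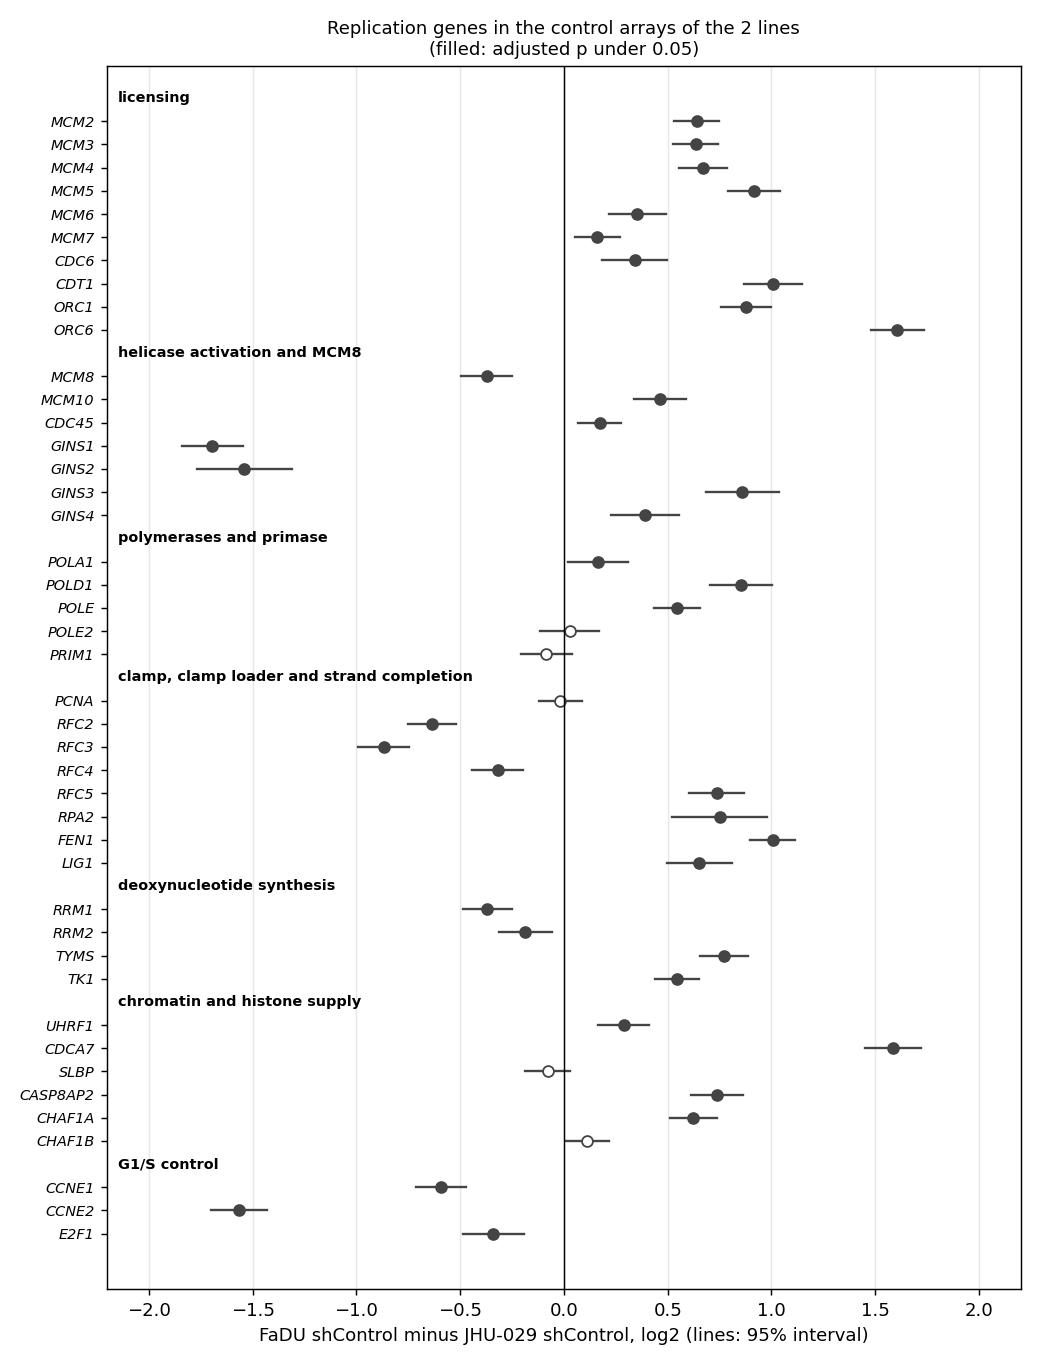
Difference of each of the 43 genes between the control arrays of the lines (FaDU shControl minus JHU-029 shControl, log2; horizontal axis) by role, with 95% intervals of the limma fit; filled points have an adjusted p under 0.05. The 10 licensing genes all lie right of 0, from 0.16 to 1.61, and the GINS and clamp loader genes lie on both sides.

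Genes around the replication machinery were read from further lists. For comparison, 14.2% of all genes were lower in FaDU and 12.4% higher (24.3% and 17.4% of the brighter genes). In JHU-029, 1.35% of all genes were lower and 1.80% higher (2.29% and 2.78% of the brighter genes). Of 37 other replication genes (polymerase, fork and origin factors outside the 43), 12 fell in FaDU and 2 rose, with a median of -0.13, and 0 passed in JHU-029 (limma), where 6 were higher and 1 lower at an unadjusted p under 0.05 (8.34% and 6.48% of all genes). POLE3, a histone-fold subunit of polymerase epsilon (-0.43), TIPIN, of the fork protection complex (-0.40), and TOPBP1, an initiation and checkpoint scaffold (-0.40), had the largest falls. RFC1, the large subunit of the clamp loader, rose by 0.21 (adjusted p = 0.0119, and 0.0737 with each line fitted alone), while RFC2, RFC3 and RFC4 fell. TOP1, topoisomerase I, rose by 0.20 (adjusted p = 0.0295), a call lost without FaDU control 1 or 3 or knockdown 2 or 3 (adjusted p from 0.0629 to 0.101). The TOP1 call was also lost with median centring (0.0544), each line fitted alone (0.099) and a fixed replicate block (0.0612). Of 26 genes of nucleotide supply, 11 fell and 3 rose in FaDU, led by DCTPP1, a pyrophosphatase that clears the nucleotide pool (-0.62), GART of purine synthesis (-0.50) and PRPS1 (-0.47). The 3 that rose were RRM2B, the p53-induced subunit of ribonucleotide reductase (0.31, adjusted p = 0.0103), SAMHD1, which degrades deoxynucleotides (0.29, adjusted p = 0.0377), and TK2, the mitochondrial thymidine kinase (0.27, adjusted p = 0.00386). RRM2B was lost without the 2 FaDU controls with an extra title word (adjusted p = 0.156). SAMHD1 was lost with each line fitted alone (0.0992) and without JHU-029 control 2 or 3, any 1 FaDU control or FaDU knockdown 2 or 3 (0.0503 to 0.139). MTHFD1, an enzyme of folate metabolism, was the 1 gene of this list past the threshold in JHU-029. It fell by 0.23 there (adjusted p = 0.0366) and by 0.34 in FaDU (adjusted p = 0.000493). The JHU-029 call was lost without any 1 JHU-029 array or FaDU knockdown 3 (0.0502 to 0.163).

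The regulators of the G1 to S transition held the largest changes of these neighbours. Of 32 measured, 13 fell and 4 rose in FaDU, and 3 fell and 2 rose in JHU-029. MYBL2, a transcription factor of late G1 and S phase, read 9.93, 10.06 and 10.05 in FaDU control arrays and 8.52, 8.43 and 8.67 after knockdown and fell by 1.47 (adjusted p = 2.11e-08). SKP2, which targets p27 for destruction, went from 10.51, 10.56 and 10.58 to 9.32, 9.32 and 9.28 and fell by 1.25 (adjusted p = 1.23e-08). CDKN1B, which encodes p27, the inhibitor of cyclin E complexes, went from 9.93, 9.99 and 10.06 to 10.80, 10.68 and 10.81 and rose by 0.77 (adjusted p = 1.13e-06). SKP2 and CDKN1B moved the same ways in JHU-029, by -0.30 (adjusted p = 0.00447) and 0.28 (adjusted p = 0.0196), and for both the change was larger in FaDU by the test of the difference (adjusted p = 5.32e-06 and 0.00156). The JHU-029 call of CDKN1B was lost without any 1 control array or without knockdown array 2 or 3 (adjusted p from 0.0611 to 0.0926). MYC fell by 0.38 in FaDU (adjusted p = 0.000261) and by 0.26 in JHU-029 (adjusted p = 0.0261), the latter lost without any 1 JHU-029 array (0.0686 to 0.12). E2F5 fell by 1.05 in FaDU, to 6.19, below the array median. TFDP2, a partner of E2F factors, and RBL1, the retinoblastoma relative p107, rose there by 0.28 (adjusted p = 0.00537) and 0.24 (adjusted p = 0.00888). RBL1 was lost with each line fitted alone (adjusted p = 0.0519) and without the 2 FaDU controls with an extra title word (0.0605). E2F7, a repressor of the E2F family, fell by 0.30 in JHU-029 (adjusted p = 0.0246) and by 0.69 in FaDU (adjusted p = 6e-06). CCND1, which encodes cyclin D1, rose by 0.23 in JHU-029 (adjusted p = 0.0268) and differed by 0.05 in FaDU (adjusted p = 0.482). The JHU-029 call of E2F7 was lost without any 1 JHU-029 control array or knockdown array 2 or 3 (0.0805 to 0.107). That of CCND1 was lost without any 1 JHU-029 control array or knockdown array 1 or 2 (0.0759 to 0.118).

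Of 17 chromatin assembly genes, 5 fell in FaDU (29.4%, against 24.3% of the brighter genes) and the others did not pass. The median of this list was 0.01, with 9 genes positive, so the list as a whole did not fall. CDCA7L, the paralog of CDCA7, was lowest (-0.76, adjusted p = 2.36e-06). ZNF473, a factor of histone mRNA processing (-0.35), and TONSL, which binds new histones at forks (-0.31), fell too, and TONSL was lost without the 2 FaDU controls with an extra title word (adjusted p = 0.0701). Of 18 genes of replication stress and repair, 5 fell (27.8%, also near the share of the brighter genes) and 1 rose in FaDU, with a median of -0.085. RAD54L, a DNA translocase of recombination repair (-0.39, adjusted p = 0.000678), and UNG, which removes uracil from DNA (-0.37, adjusted p = 0.000657), were among those that fell. HUS1, of a checkpoint clamp, rose by 0.24 (adjusted p = 0.0113), lost with each line fitted alone (adjusted p = 0.0693) and without the 2 FaDU controls with an extra title word (0.0755). In JHU-029 the helicase BLM rose by 0.26 (adjusted p = 0.0343), lost without control 2 or 3 or any 1 knockdown array (0.0749 to 0.16). Of the replication-dependent histone genes, 1 of 38 was past the threshold in each line (2.63%), with a median of -0.05 in FaDU. Of all genes, 3.15% passed either way in JHU-029 and 26.6% in FaDU. In JHU-029 this was H1-1, a linker histone, which rose by 0.39 (adjusted p = 0.00392) from a control mean of 6.43, below the array median. In FaDU H2AC17 rose by 0.55 (adjusted p = 0.00557), but from a control mean of 6.20, below the array median, and it has near-identical copies. Its rise was only 0.28 without the 2 control arrays with an extra title word. Most such histone mRNAs end without a poly(A) tail, and cDNA was primed with oligo-dT according to the labels; the part of this in the result was not tested. Genes of G2 and mitosis, the phases that follow, gave 18 falls and 2 rises of 51 in FaDU and 3 rises and 1 fall in JHU-029, with medians of -0.10 and 0.09, where the replication genes had -0.17 and 0.06. CDCA8 of the chromosomal passenger complex (-1.20), the phosphatase CDC25B (-1.10) and the mitotic transcription factor FOXM1 (-0.84) had the largest falls there. FOXM1 also fell in JHU-029, by 0.29 (adjusted p = 0.0228), lost without any 1 control array or knockdown array 1 or 2 (0.0704 to 0.104). The rises in FaDU were those of HMMR (0.41), a spindle protein, and ANLN (0.39), a scaffold of cell division. The rises in JHU-029 were those of the kinesin KIF20B (0.44, adjusted p = 0.00122), ANLN (0.26, adjusted p = 0.0211) and the mitotic kinase AURKA (0.21, adjusted p = 0.0347). There ANLN was lost without control 1 or 3 or any 1 knockdown array (0.0577 to 0.103), and AURKA without any 1 JHU-029 array (0.0651 to 0.143).

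**Figure D5:**
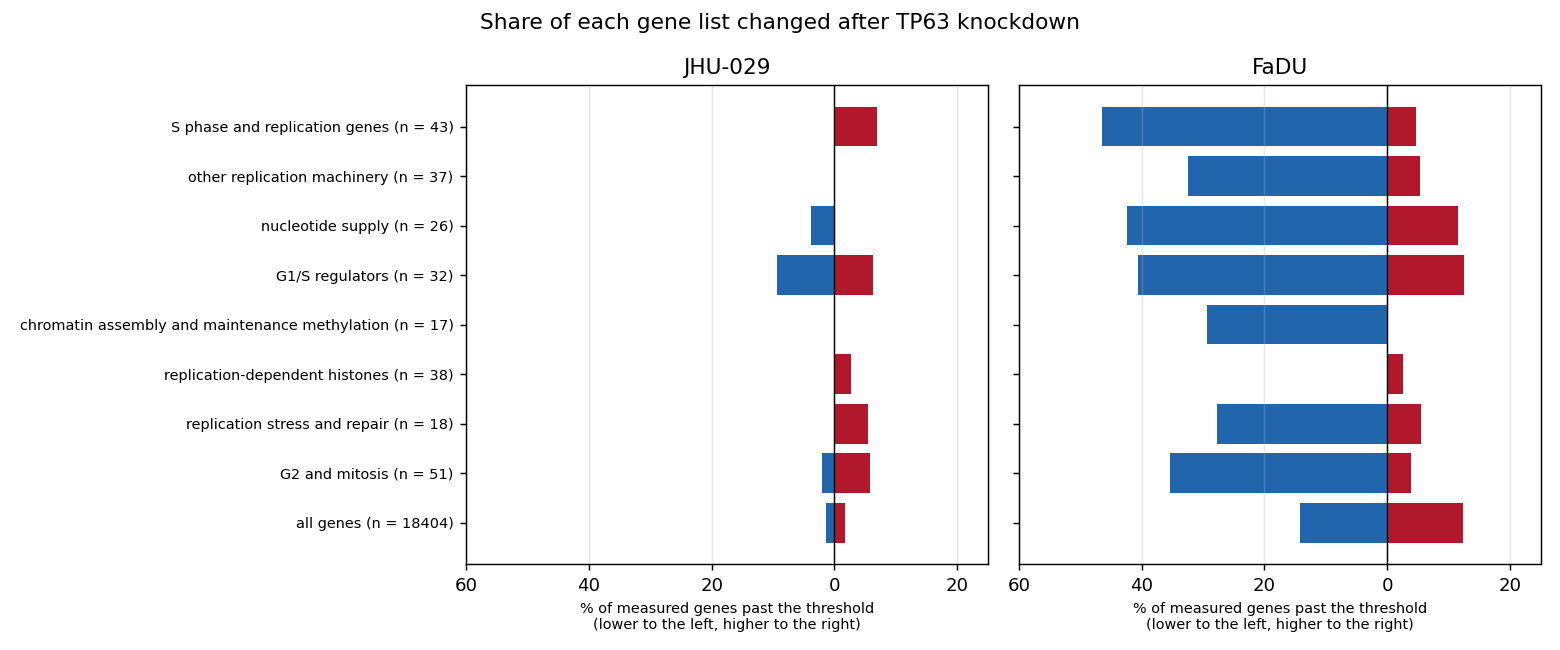
Percent of the measured genes of each list past the threshold (limma adjusted p under 0.05), lower to the left in blue and higher to the right in red, in JHU-029 and FaDU. The 43 replication genes reach 46.5% lower in FaDU against 14.2% of all genes, and the 38 histone genes have no bar to the left.

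In FaDU, squamous markers fell along with many of the replication genes. All 11 measured squamous markers lay above the array medians in FaDU shControl, and 9 fell in FaDU, with a summed linear intensity from 19400 to 19700 in control arrays and from 11200 to 11700 after knockdown. In JHU-029 the sums were 40600 to 43700 and 37400 to 39900, and 1 marker fell past the threshold. There 9 of the 11 were negative, with a median of -0.18, while the replication genes had a median of 0.06. Of markers of other cells, 7 or 8 of 9 for fibroblasts, 7 of 9 for immune cells and 6 of 8 for endothelium lay below the array median in each group. No fibroblast marker passed, and 1 immune and 1 endothelial marker rose in FaDU, both also past the threshold for the difference between lines. CDH5, an endothelial cadherin, went from 8.69 to 9.69, while PECAM1, VWF and TEK did not pass. CD14, a monocyte receptor, went from 6.66 to 7.17 (adjusted p = 0.00102), while PTPRC, the pan-leukocyte marker, lay below the array medians and did not pass. The part of these markers in the change of the replication genes was not tested.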

How the data were processed

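The authors deposited 1 table of intensity values for 32321 probe sets on 12 arrays, made by RMA (background correction, quantile normalisation and median polish) and R 2.15.1, per the submitters' processing notes. The labels do not name the RMA implementation. The values were linear and were put on a log2 scale. Probe sets were named through a platform table: 19158 had 1 symbol, 1388 several (unused) and 11775 were not listed. The probe set with the highest mean stood for a gene, giving 18404 genes.

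Means of the 4 groups were modelled jointly over the 12 arrays in limma 3.58.1 under R 4.3.3 (8 residual degrees of freedom, prior 4.17). P-values are two-sided and adjusted by Benjamini-Hochberg over 18404 genes per contrast, with a threshold of 0.05. SE and 95% intervals are those of the fit. The contrasts were shTP63 minus shControl per line, their difference, and the control arrays of the lines. Array number limits the precision. The script was tested on simulated data.

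All members are named, and of each other list up to 3 genes per line and direction, by size of change among those past the threshold, except that CDH5, PECAM1, VWF, TEK, CD14 and PTPRC were named after their values were seen. Of the genes this rule gives, 1 is not reported here. Members and lists were chosen with earlier results of these data known, so no pattern here is independent support. Replicate numbers did not pair the arrays. Alternatives were other scalings, probe set rules, variance priors, a filter on dim genes, array weights, replicate blocks and leaving out arrays.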

Additional observations from a re-analysis of the deposited data

Results flagged for a closer look

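In limma's test of whether the change after TP63 knockdown differed between FaDU and JHU-029, 13.2% of all genes passed (21.4% of the brighter genes). By that test the change differed for 16 of the 43 replication genes. Values are the FaDU effect minus the JHU-029 effect on the log2 scale. In licensing these were ORC1 (-0.43, adjusted p = 0.00343), ORC6 (-0.40, adjusted p = 0.00741) and CDC6 (-0.35, adjusted p = 0.0411). In helicase activation they were GINS3 (-0.73, adjusted p = 0.00138), GINS4 (-0.64, adjusted p = 0.00198), GINS1 (-0.47, adjusted p = 0.00669), MCM8 (-0.39, adjusted p = 0.00669) and MCM10 (-0.31, adjusted p = 0.0244). The clamp loader gave RFC4 (-0.45, adjusted p = 0.00318), RFC3 (-0.43, adjusted p = 0.00357) and RFC2 (-0.35, adjusted p = 0.00827), and polymerase epsilon gave POLE2 (-0.53, adjusted p = 0.00289).

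Among genes of chromatin these were CDCA7 (-0.79, adjusted p = 0.000136), CHAF1B (-0.44, adjusted p = 0.00128) and UHRF1 (-0.31, adjusted p = 0.0217). CCNE2 was the 1 gene with the opposite sign (0.81, adjusted p = 0.000135), since it rose by 0.26 in JHU-029 and by 1.07 in FaDU.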

How the results depend on the processing

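Of 24 alternatives, all kept the members' median change negative in FaDU (-0.21 to -0.13) and positive in JHU-029 (0.05 to 0.08). The count in FaDU ranged from 18 (each line fitted alone) to 25, and from 22 to 25 when leaving out single arrays; 16 of the 22 calls held throughout. In JHU-029 the count of 3 was 5 without dim genes, 7 with array weights and from 0 to 3 when leaving out single arrays, and 0 of the 3 calls held throughout. The count of 16 genes differing between the lines was 25 without dim genes, 23 with an intensity trend and 13 to 18 without single arrays. Of the 16 calls, 13 held throughout. The 38 control differences ranged from 35 to 39. The 2 genes changed the same way became 1 with median centring, 1 with each line fitted alone, 1 without the 2 FaDU controls with an extra title word, and 0 to 2 without single arrays. In the other lists, the 12 calls in JHU-029 (7 higher, 5 lower) became 16 (11 and 5) with quantile normalisation, 7 (5 and 2) with median centring, 33 without dim genes, 32 with an intensity trend, 47 with array weights and 3 to 14 without single arrays. The 77 in FaDU became 51 with each line fitted alone and 67 to 84 without single arrays. The causes were not tested. No test reversed a called change. With each line fitted alone the contrasts between lines have no value, and a fixed block has none for the control arrays. Array values hold no counts, and all 43 genes lay above the array medians.

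Same-numbered arrays did not deviate together (correlations from -0.34 to -0.01 in JHU-029 and from -0.08 to 0.01 in FaDU). With a fixed replicate block, counts were 0 in JHU-029, 21 in FaDU, 13 for the difference between lines, 0 for the same way, and 2 and 62 in the other lists. With a random replicate block they were 1, 22, 15 and 0, and 9 and 72.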
